A study of Mus musculus with 8 samples.

Results

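The interleukin-1 family of cytokines, receptors and inhibitors was examined in the right cerebral cortex of mice after cerebral hypoperfusion. Its 9 members were chosen by name: the ligands Il1a, Il1b, Il18 and Il33, the receptors Il1r1, Il1rap and Il1rl1, and the inhibitors Il1rn and Il18bp. All 9 were found among the 54752 genes of the count tables. RNA-seq was performed on 8 wild-type C57BL/6 mice (C57BL/6 J in the methods), 1 mouse per library, 4 after sham surgery (Sham 1 to 4) and 4 after bilateral carotid artery stenosis (BCAS 1 to 4), all taken 3 weeks post-surgery. In BCAS a microcoil is placed around each common carotid artery, with the narrower coil on the right side in this study, and the sham mice had the surgery without coils. The mice were adult males, and every animal carried the WT genotype, so the surgery is the factor that separates the groups. The question asked here is how the members of this family differ between hypoperfused and sham cortex.

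Interleukin-1 alpha and beta are ligands of the same receptor chain, encoded by Il1r1, which signals only after it has joined the accessory chain encoded by Il1rap. The receptor antagonist (Il1rn) occupies Il1r1 without recruiting that accessory chain, interleukin-18 binding protein (Il18bp) captures interleukin-18 in solution, and interleukin-33 acts through the ST2 receptor (Il1rl1), again with Il1rap. In the brain, microglia and infiltrating myeloid cells are known sources of interleukin-1, while astrocytes and oligodendrocytes are known to hold interleukin-33 in their nuclei. Interleukin-1 beta and interleukin-18 are made as precursors that caspase-1 cleaves, so a transcript level does not give the amount of active cytokine.

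The members lie on 6 chromosomes of the mm10 genome. The ligand genes Il1a (chr2:129299610-129309972) and Il1b (chr2:129364570-129371139) are neighbours on the minus strand, 54.6 kb apart, whereas Il1rn (chr2:24336853-24351494, plus strand) is far from them on the same chromosome. Il1r1 (chr1:40225080-40317257) and Il1rl1 (chr1:40429570-40465415) belong to a cluster of 6 receptor genes that spans 478 kb of chromosome 1, in the order Il1r2, Il1r1, Il1rl2, Il1rl1, Il18r1 and Il18rap, all on the plus strand. Only 0.136 kb separate the annotated end of Il1rl1 from the start of Il18r1. Il1rap (chr16:26581704-26730117, plus strand), Il18 (chr9:50554827-50581840, plus strand), Il18bp (chr7:102014885-102018690, minus strand) and Il33 (chr19:29925114-29960718, plus strand) stand apart from the other members.

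The 250 bases before the start site are shown for 4 members, because they set the neighbouring ligand genes Il1a and Il1b and their antagonist Il1rn, which were low or undetected in sham cortex, beside Il1rap, which was well expressed in both groups. The sequences are those of RefSeq on GRCm38.p6, read 5′ to 3′ on the strand of the gene, and capitals mark the motif matches described after them.
Il1a, chr2:129309973-129310222, minus strand: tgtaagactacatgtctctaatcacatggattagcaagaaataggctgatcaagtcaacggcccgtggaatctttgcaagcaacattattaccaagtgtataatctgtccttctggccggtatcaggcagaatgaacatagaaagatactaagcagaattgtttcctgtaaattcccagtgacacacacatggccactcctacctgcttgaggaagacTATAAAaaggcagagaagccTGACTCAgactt
Il1b, chr2:129371140-129371389, minus strand: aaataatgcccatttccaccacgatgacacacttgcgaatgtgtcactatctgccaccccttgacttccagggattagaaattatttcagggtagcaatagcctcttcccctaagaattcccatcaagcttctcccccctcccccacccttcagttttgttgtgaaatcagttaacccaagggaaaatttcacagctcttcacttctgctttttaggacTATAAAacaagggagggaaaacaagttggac
Il1rn, chr2:24336610-24336859, plus strand: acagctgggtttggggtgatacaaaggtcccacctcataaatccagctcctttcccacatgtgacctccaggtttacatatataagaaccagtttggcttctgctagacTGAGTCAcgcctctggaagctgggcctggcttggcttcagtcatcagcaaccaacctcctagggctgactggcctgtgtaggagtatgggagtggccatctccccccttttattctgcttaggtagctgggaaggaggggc
Il1rap, chr16:26581455-26581704, plus strand: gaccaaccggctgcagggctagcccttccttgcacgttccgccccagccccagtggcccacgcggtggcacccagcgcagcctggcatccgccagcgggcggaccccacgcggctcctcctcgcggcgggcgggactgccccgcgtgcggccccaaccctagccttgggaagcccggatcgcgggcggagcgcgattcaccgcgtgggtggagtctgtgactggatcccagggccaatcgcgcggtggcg
Il1a and Il1b each hold TATAAA, beginning 32 and 31 bases before the start. Il1a also holds the AP-1 motif TGANTCA at 12 bases before the start, as TGACTCA, and the antagonist Il1rn holds it at 141 bases before its first annotated start, as TGAGTCA. The Il1rap window held none of the motifs searched and was the richest of the 4 in G and C, at 74.4%, compared with 42.4% for Il1a, 44.4% for Il1b and 53.2% for Il1rn. Among 32851 RefSeq windows of the same length, 12.4% held TATAAA and 6.75% held TGANTCA on either strand. The STAT motif TTCNNNGAA (in 7.02% of windows) and single consensus forms of the NF-kB motif (0.98%) and of the interferon-stimulated response element (2.98%) were not found in these 4 windows, which says only that these letters are not there. The STAT motif and TATAAA were searched on both strands like the others, and no match overlapped another. TATAAA did not follow the level in sham cortex, since Il33, the most abundant member there, holds it 203 and 29 bases before its 2 annotated starts, and Il18 holds it on the opposite strand 175 bases before its start. The windows of Il1r1, Il1rl1 and Il18bp and of the later starts of Il1rn held none of the motifs.

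The libraries held 16759364 to 21794435 counts. Expression is given in counts per 1000000 counts (CPM), after the library sizes were scaled by edgeR's TMM factors of 0.949 to 1.05, and a count of 0 is compatible with up to 3 counts, that is 0.132 to 0.187 CPM on this scale depending on the library, for counting error only. Cortical neuron markers were present in every library, with a sum over 10 markers of 7400 to 9082 CPM in sham mice and a lower one of 2654 to 6209 CPM in BCAS mice. Sham 3 stood apart in choroid plexus markers, with a sum of 779 CPM over 6 markers against 15.1 to 71.6 CPM in the other libraries. The libraries were of whole tissue, so more cells of a type and more RNA per cell cannot be told apart.

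With edgeR's quasi-likelihood test, 12.2% of the 17136 tested genes were called, with a Benjamini-Hochberg adjusted p under 0.05 and a log2 fold change beyond 1 in either direction. Of the 9 members, 8 passed the filter on low counts and 5 were called, all higher in BCAS mice: Il1a, Il1b, Il1r1, Il1rl1 and Il18bp. Genes called higher in BCAS mice made up 11.0% of those tested, and genes called lower 1.28%. A gene had to reach 0.558 CPM in at least 4 libraries, and Il1b and Il1rl1 did so in 1 sham library and Il1a in 3, so these members entered the test only through their level in BCAS mice and the count of 5 carries no weight beyond the values themselves. Il33 and Il18 passed the adjusted p but not the fold threshold, Il1rap passed neither, and Il1rn was left untested by the filter. The 5 called members were also called without Sham 3, Il18bp with an adjusted p of 0.0488. Genes with an adjusted p under 0.05 at any fold were 32.0% of those tested, and 19.2% were such genes higher in BCAS mice. In CPM, the 4 BCAS mice were all above the 4 sham mice for 8 of the 9 members, as they were for 18.5% of the tested genes, and 34.8% of the tested genes had groups that did not overlap in either direction.

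**Figure D1:**
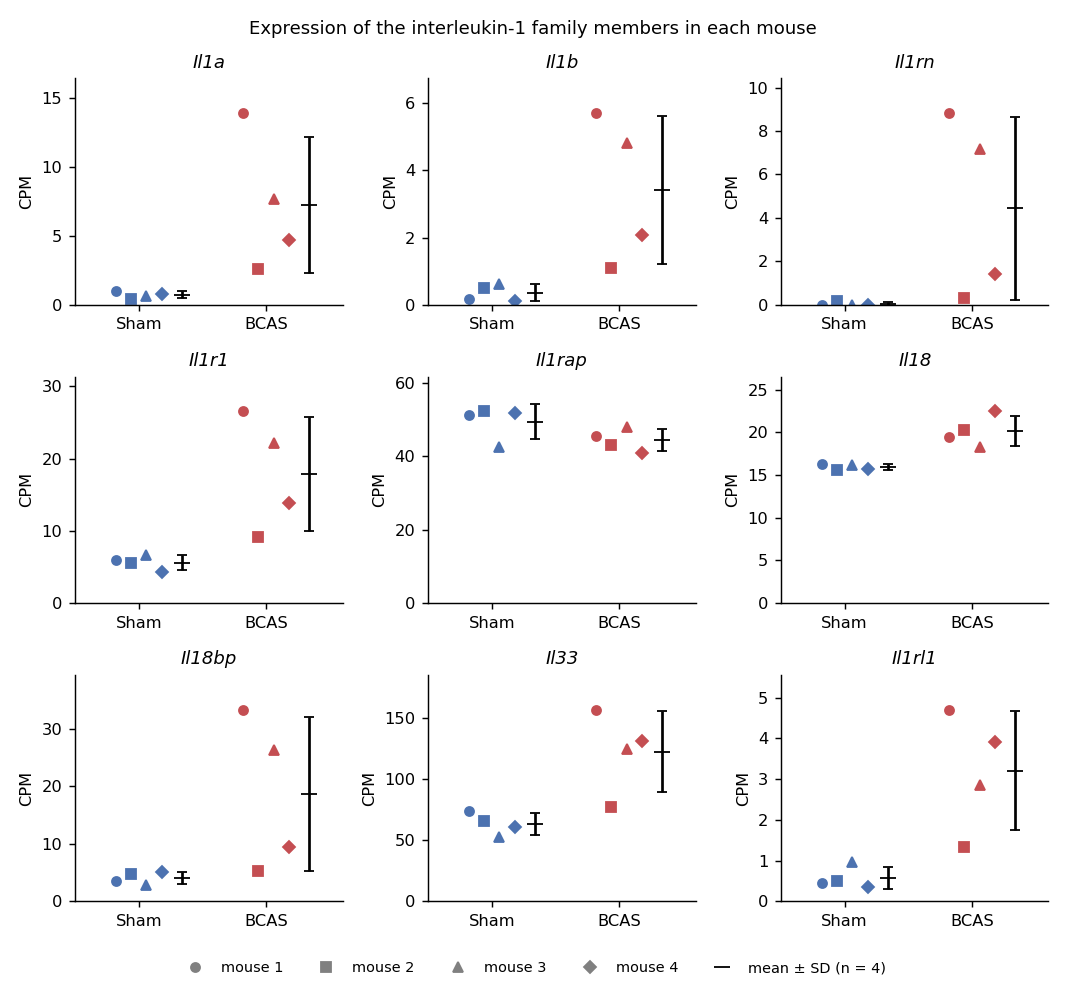
TMM-normalized CPM of the 9 members in each mouse (vertical axes in CPM, each panel with its own scale from 0), with sham mice in blue and BCAS mice in red, the mouse number given by the symbol, and the bar giving the mean ± SD (n = 4). The 4 BCAS mice lie above the 4 sham mice in every panel except Il1rap, and BCAS 2 is the lowest of the BCAS mice in 7 of the 9 panels.

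The ligands of the interleukin-1 receptor rose in BCAS-hypoperfused cortex from a low level in sham cortex. Il1a was at 1.02, 0.437, 0.629 and 0.784 CPM in Sham 1 to 4 and at 13.9, 2.58, 7.67 and 4.69 CPM in BCAS 1 to 4. The 4 BCAS mice were all above the 4 sham mice, with BCAS 1 far above the others and BCAS 2 the closest to sham. The mean went from 0.718 ± 0.248 to 7.22 ± 4.94 CPM (SD, n = 4 each), a log2 fold change of 3.31 ± 0.54 (SE, edgeR quasi-likelihood test, adjusted p = 0.00438). Gm14023, on the opposite strand, covers 11.2% of the exon bases of Il1a, and reads were counted without regard to strand. Its own counts did not exceed 17 in any library, whereas Il1a had 50 to 317 counts in the BCAS mice.

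Il1b was scarcer. It was at 0.170, 0.499, 0.629 and 0.121 CPM in Sham 1 to 4, which are 2 to 11 counts per library, and at 5.71, 1.08, 4.81 and 2.07 CPM in BCAS 1 to 4. The groups did not overlap, and the BCAS mice took the same order as for Il1a, 1, 3, 4 and 2 from the highest to the lowest. Its log2 fold change was 3.25 ± 0.66 (SE, adjusted p = 0.00924), with means of 0.355 ± 0.248 and 3.42 ± 2.20 CPM (SD, n = 4 each). Il1a and Il1b were called in each of the 14 other fits that tested them, among them the 8 in which each mouse in turn was left out.

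Il33 was the most abundant member. It was already at 74.2, 65.7, 52.4 and 61.1 CPM in Sham 1 to 4, and it was at 157, 77.7, 125 and 131 CPM in BCAS 1 to 4. Again no BCAS mouse fell into the sham range, although BCAS 2 exceeded Sham 1 only narrowly. The log2 fold change of 0.95 ± 0.20 (SE, adjusted p = 0.0105) lay just under the fold threshold. The adjusted p was below 0.05 in each of 15 other fits, and the gene crossed the fold threshold in 2 of them, at 1.13 without BCAS 2 and at 1.03 without Sham 1.

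Il18 differed least between the groups among the ligands and varied least within them. Its level was 16.3, 15.5, 16.1 and 15.7 CPM in Sham 1 to 4 and 19.4, 20.3, 18.3 and 22.4 CPM in BCAS 1 to 4. The lowest BCAS mouse was above the highest sham mouse, and the order among BCAS mice differed from that of the other ligands, with BCAS 4 the highest and BCAS 3 the lowest. In the test its log2 fold change was 0.34 ± 0.10 (SE, adjusted p = 0.0284). The adjusted p was no longer below 0.05 without Sham 1 (0.0695), Sham 2 (0.0784), Sham 3 (0.0547), Sham 4 (0.0749) or BCAS 4 (0.0776), nor without the filter on low counts (0.0759). With the replicate number as a block in the fit it was 0.0776.

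Among the receptors, the ligand-binding chain Il1r1 and the ST2 receptor Il1rl1 rose, while the shared accessory chain Il1rap did not pass the test. Il1r1 was at 5.97, 5.49, 6.69 and 4.28 CPM in Sham 1 to 4 and at 26.6, 9.12, 22.1 and 13.8 CPM in BCAS 1 to 4. All BCAS mice were above all sham mice, in the order 1, 3, 4 and 2. The log2 fold change was 1.67 ± 0.32 (SE, adjusted p = 0.00764), and Il1r1 was called in each of 15 other fits.

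Il1rl1 was at 0.455, 0.499, 0.972 and 0.362 CPM in Sham 1 to 4, or 6 to 17 counts per library, and at 4.70, 1.34, 2.86 and 3.92 CPM in BCAS 1 to 4. The groups were separate, and here BCAS 4 came directly after BCAS 1, the order also seen for its ligand Il33. The log2 fold change was 2.47 ± 0.46 (SE, adjusted p = 0.00680), and the gene was called in each of the 14 other fits that tested it.

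Il1rap was at 51.2, 52.2, 42.4 and 51.8 CPM in Sham 1 to 4 and at 45.5, 43.1, 47.8 and 40.9 CPM in BCAS 1 to 4. The groups overlapped, since Sham 3 lay within the BCAS range. The log2 fold change of -0.16 ± 0.09 (SE) had an adjusted p of 0.218, and it was negative in each of 15 other fits, with adjusted p between 0.0727 and 0.411. This does not show that the level was equal in the groups. Gm20319 on the opposite strand covers 4.86% of its exon bases and had at most 10 counts in a library.

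On a fold scale the inhibitors had the widest range among BCAS mice. Il1rn was close to absent from sham cortex, with 0, 3, 0 and 0 counts in Sham 1 to 4, and was found at 201, 6, 133 and 26 counts in BCAS 1 to 4, or 8.84, 0.309, 7.18 and 1.42 CPM. BCAS 1 and BCAS 3 carried most of these counts, and the 6 counts of BCAS 2 were little more than the 3 of Sham 2. The summed normalized counts of the BCAS mice were 104 times those of the sham mice, with a 95% exact interval of 35.5 to 509 that covers counting error only. The filter kept Il1rn out of the test. Without the filter its log2 fold change was 6.43 (edgeR quasi-likelihood test, adjusted p = 0.00314), and in the 5 fits without 1 mouse that did test it the adjusted p was 0.000615 to 0.0460. These 5 left out a sham mouse or BCAS 2. Without BCAS 1, 3 or 4, which carry most of its counts, the gene did not pass the filter, so its dependence on these mice was not tested. The fitted log2 fold change was 9.37 without Sham 2, which holds the only sham counts, and 6.05 to 6.84 in the other 4, so its size is poorly determined.

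Il18bp was at 3.47, 4.74, 2.80 and 5.07 CPM in Sham 1 to 4 and at 33.3, 5.20, 26.4 and 9.54 CPM in BCAS 1 to 4. The groups did not overlap, but BCAS 2 was hardly above Sham 4. It rose by a log2 fold change of 2.21 ± 0.55 (SE, adjusted p = 0.0186). The call was lost without Sham 1 (adjusted p = 0.0588), with limma-voom in place of edgeR (adjusted p = 0.0760) and with the replicate number as a block in the fit. Numa1 overlaps 2.64% of its exon bases on the opposite strand, and its own log2 fold change was 0.37 (adjusted p = 0.0614).

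**Figure D2:**
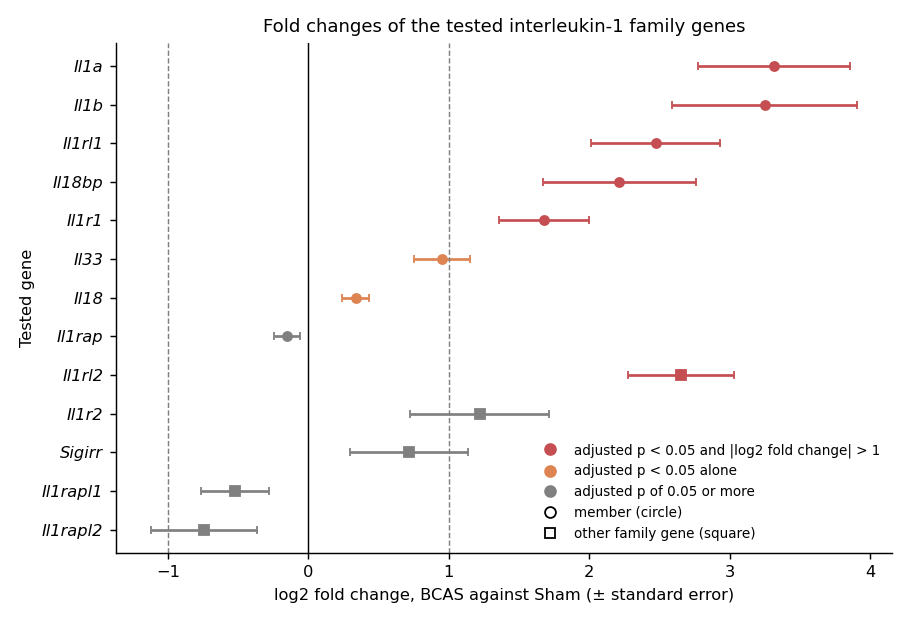
Log2 fold change of BCAS against sham mice with its standard error (horizontal axis) for the 8 tested members (circles) and the 5 other tested genes of the family (squares), with the colour giving the result of edgeR's quasi-likelihood test and dashed lines at the fold thresholds. Il1a and Il1b lie furthest to the right at 3.31 and 3.25, Il33 ends just left of the threshold at 0.95, and Il1rap sits beside 0 at -0.16.

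The size of the difference varied widely between the BCAS mice. Relative to the sham mean, log2 CPM was higher by 4.14, 1.75, 3.28 and 2.59 for Il1a in BCAS 1 to 4. For Il18bp the corresponding values were 3.06, 0.40, 2.72 and 1.26, and for Il1r1 they were 2.24, 0.71, 1.98 and 1.30. BCAS 1 thus moved the most and BCAS 2 the least for each of these genes, and the same held for 7 of the 9 members, the exceptions being Il18 and Il1rap. This order is common in the whole table: it was found in 27.4% of the tested genes and in 86.5% of the 1877 genes called higher in BCAS mice. Below BCAS 1, BCAS 3 exceeded BCAS 4 for Il1a, Il1b, Il1rn, Il1r1 and Il18bp, whereas BCAS 4 exceeded BCAS 3 for Il33 and Il1rl1.

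**Figure D3:**
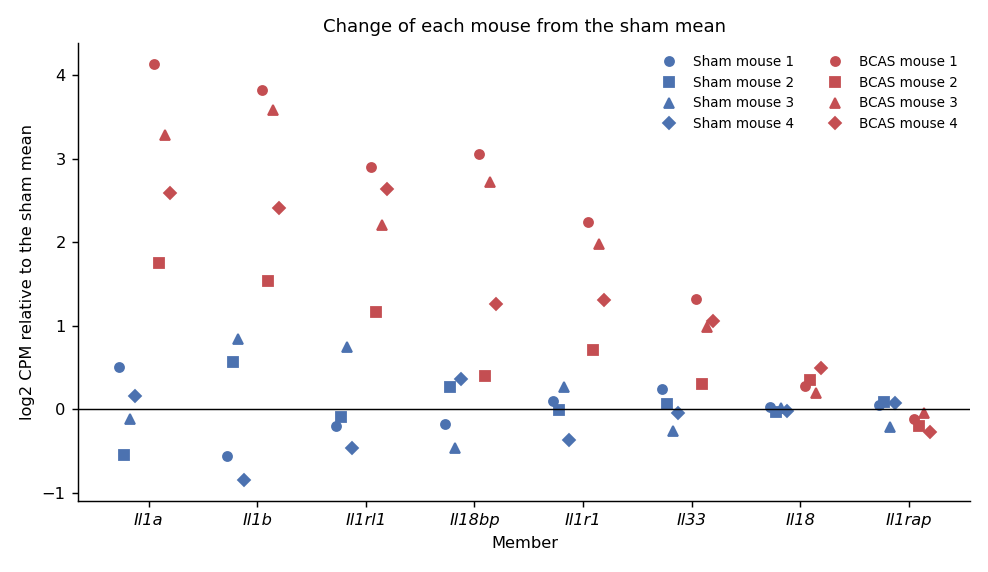
Log2 CPM of each mouse relative to the sham mean (vertical axis) for the 8 tested members, ordered by fold change, with sham mice in blue, BCAS mice in red and the mouse number given by the symbol. BCAS 1 reaches 4.14 for Il1a while BCAS 2 reaches 1.75, and the spread between mice narrows towards Il18 and Il1rap.

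Levels were compared between members as CPM per kilobase of exon, since a longer transcript gives more counts. In sham cortex Il33 was the highest at 22.0 ± 3.2 CPM per kb (SD, n = 4), followed by Il18 at 15.4 ± 0.3 and Il1rap at 4.35 ± 0.41. The inhibitor Il18bp (1.33 ± 0.35) and the receptor Il1r1 (0.881 ± 0.159) came next, and their ranges overlapped. Below them the ranges of Il1a (0.364 ± 0.126) and Il1b (0.186 ± 0.130) overlapped, as did those of Il1b and Il1rl1 (0.0830 ± 0.0396), and Il1rn was the lowest at 0.00846 ± 0.0169 CPM per kb. In sham cortex the transcripts of Il33 and Il18 thus stood far above those of Il1a and Il1b.

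In BCAS cortex Il33 (42.5 ± 11.5 CPM per kb) and Il18 (19.5 ± 1.7) were still the highest, and their ranges did not overlap each other or those of the other members. The remaining 7 members followed with Il18bp at 6.15 ± 4.43, Il1rap at 3.90 ± 0.26, Il1a at 3.66 ± 2.50, Il1r1 at 2.82 ± 1.24, Il1b at 1.79 ± 1.15, Il1rn at 0.802 ± 0.760 and Il1rl1 at 0.465 ± 0.211 CPM per kb. Each of these overlapped its neighbour in the order, although members further apart could be separate, as Il1rap was from Il1b, Il1rn and Il1rl1.

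**Figure D4:**
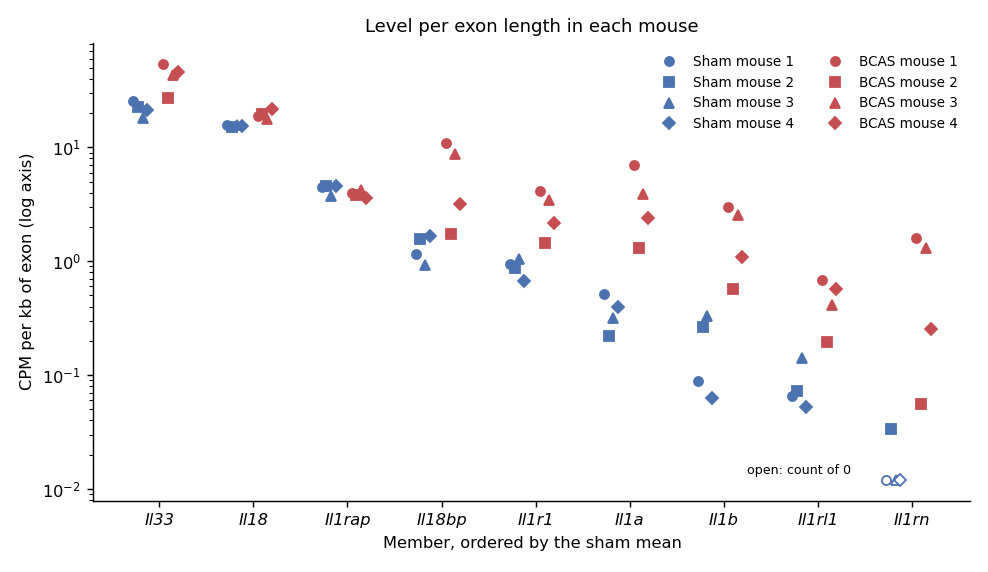
CPM per kilobase of exon (log axis) of each member in each mouse, ordered by the sham mean, with sham mice in blue, BCAS mice in red and open symbols at the bottom for the 3 sham mice with a count of 0 for Il1rn. The sham mice span from 22.0 for Il33 to 0.00846 CPM per kb for Il1rn on average, and in BCAS mice the means of the 7 lower members lie between 6.15 and 0.465 CPM per kb.

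The balance between members within a mouse was compared for 5 pairs as the log2 ratio of normalized counts, with 0.5 added to each count. None of the 5 passed after adjustment. The ratio of the receptor chains Il1r1 to Il1rap was -3.10, -3.24, -2.66 and -3.59 in Sham 1 to 4 and -0.78, -2.24, -1.11 and -1.56 in BCAS 1 to 4. The groups did not overlap, and the mean was higher by 1.72 in BCAS mice. By an exact permutation test, two-sided, p was 0.0286, the smallest that 4 against 4 mice allow, and 0.0857 after Benjamini-Hochberg adjustment over the 5 pairs. A pair that reaches this smallest p by itself cannot pass the adjustment over 5 pairs, so not passing does not show that the ratios were equal. Per kilobase, Il1r1 stood at 0.148 to 0.282 times the level of Il1rap in sham mice, and at 1.04, 0.378, 0.827 and 0.604 times that level in BCAS 1 to 4.

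The remaining ratios overlapped between the groups. The ratio of the ST2 receptor Il1rl1 to its ligand Il33 was -7.27, -6.96, -5.71 and -7.30 in Sham 1 to 4 and -5.05, -5.83, -5.43 and -5.05 in BCAS 1 to 4, higher by 1.47 (exact permutation p = 0.0571, adjusted p = 0.0857), with Sham 3 inside the BCAS range. The ratio of Il18bp to Il18 was higher by 1.55 (exact permutation p = 0.0857, adjusted p = 0.0857), and BCAS 2, at -1.96, lay within the sham range of -2.51 to -1.63. Per kilobase, Il18bp stood at 0.584, 0.0873, 0.490 and 0.145 times the level of Il18 in BCAS 1 to 4 and at 0.0592 to 0.110 times in sham mice, so on this scale it was below its ligand in every mouse. This order depends on the lengths used, and in counts alone Il18bp exceeded Il18 in BCAS 1 (758 against 442) and BCAS 3 (488 against 339).

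For the antagonist and its competitors, the ratio of Il1rn to Il1b was higher by 2.53 (exact permutation p = 0.0571, adjusted p = 0.0857), and that of Il1rn to Il1a by 2.61 (exact permutation p = 0.0857, adjusted p = 0.0857). The sham values rest on 0 to 3 counts of Il1rn, so their size is set by the added 0.5, and with 2 counts added in its place the differences were 1.35 and 1.24. Per kilobase, Il1rn stood at 0.533, 0.0984, 0.515 and 0.236 times the level of Il1b in BCAS 1 to 4, below it in each of these mice. This order depends on the length used, the 5.535 kb of all annotated exons of Il1rn, a gene with 3 start sites, and in counts alone Il1rn exceeded Il1b in BCAS 1 (201 against 130) and BCAS 3 (133 against 89).

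**Figure D5:**
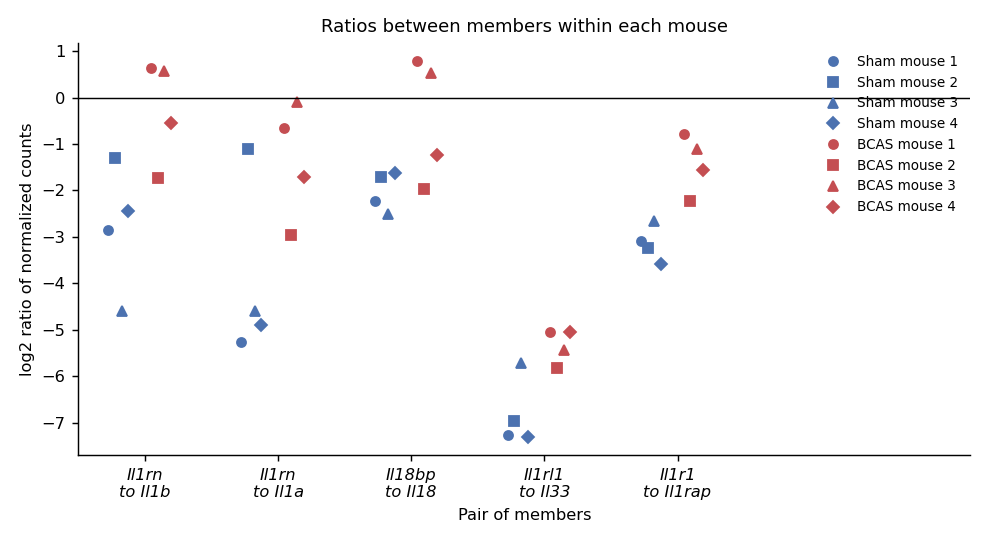
Log2 ratio of normalized counts within each mouse (vertical axis) for 5 pairs of members, with sham mice in blue, BCAS mice in red and the mouse number given by the symbol. The groups are separate only for Il1r1 to Il1rap, where the sham mice lie between -3.59 and -2.66 and the BCAS mice between -2.24 and -0.78.

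Over all tested genes 12.2% were called, and of the other 12 ligands and receptors of the family 5 passed the filter and 1 was called. This was Il1rl2, the receptor for interleukin-36 and the neighbour of Il1r1 on chromosome 1, with 20 to 25 counts in sham mice and 274, 62, 165 and 145 counts in BCAS 1 to 4, and with a log2 fold change of 2.65 ± 0.38 (SE, adjusted p = 0.00281). Il1f9, which encodes a ligand of this receptor, had 0, 0, 2 and 0 counts in Sham 1 to 4 and 26, 0, 35 and 0 counts in BCAS 1 to 4, so its counts came from BCAS 1 and BCAS 3. Il1f6, Il1f8 and Il1f10 had no count in any library, and Il1f5 had 2 counts in Sham 4.

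The decoy receptor Il1r2, next to Il1r1, was at 0.562 to 0.724 CPM in sham mice and at 1.63, 0.670, 3.02 and 0.763 CPM in BCAS 1 to 4. BCAS 2 lay within the sham range, and the log2 fold change of 1.22 ± 0.49 (SE) had an adjusted p of 0.0843. It passed in 1 of 14 other fits, without BCAS 2 (adjusted p = 0.0254), and was 0.66 without BCAS 3 (adjusted p = 0.242). The inhibitory receptor Sigirr had a log2 fold change of 0.72 ± 0.42 (SE, adjusted p = 0.211). The neuronal members Il1rapl1 and Il1rapl2, which act at synapses, had negative log2 fold changes of -0.52 ± 0.24 (adjusted p = 0.121) and -0.74 ± 0.38 (adjusted p = 0.152), and of 15 other fits the former passed the adjusted p in 1, without BCAS 2 (0.00471). For Il1rapl2 the 4 BCAS mice, at 1.10 to 4.33 CPM, were all below the sham mice, at 4.38 to 6.92 CPM.

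The interleukin-18 receptor genes, at the end of the chromosome 1 cluster, were like Il1rn close to absent from sham cortex. Il18r1, which binds the ligand, had 1, 1, 0 and 0 counts in Sham 1 to 4 and 242, 1, 141 and 42 counts in BCAS 1 to 4. Il18rap, its accessory chain, had 2, 1, 1 and 3 counts in sham and 262, 7, 116 and 31 counts in BCAS mice. For Il18r1, BCAS 2 was no different from sham mice, while BCAS 1, 3 and 4 stood well above them. Neither gene passed the filter. The adjusted p was 0.00319 for Il18r1 and 0.00266 for Il18rap without the filter, and at most 0.0404 and 0.0367 in the 5 fits without 1 mouse that tested them. These 5 left out a sham mouse or BCAS 2. Without BCAS 1, 3 or 4, which carry most of the counts, neither gene passed the filter, so dependence on these mice was not tested. Il18 itself differed by 0.34 on the log2 scale, whereas both chains of its receptor and its soluble inhibitor Il18bp were far above the sham range in BCAS 1 and BCAS 3.

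Downstream of the receptors, 3 of the 12 tested genes of receptor signalling were called, all higher, beside 11.0% of all tested genes called higher. The median log2 fold change of the list was 0.40, compared with -0.01 over all tested genes. With the adjusted p alone, 7 were higher and 1 was lower in BCAS mice, beside 3291 (19.2%) higher and 2199 lower of the 17136 tested genes. The kinase gene Irak4 was at 1.12 to 3.26 CPM in sham and at 18.4, 5.31, 10.2 and 8.50 CPM in BCAS mice (log2 fold change 2.27 ± 0.43, SE, adjusted p = 0.00703). Irak3, which encodes an inhibitory member of the same kinase family, had a log2 fold change of 2.02 ± 0.42 (SE, adjusted p = 0.0103), and the adaptor Myd88 had one of 1.71 ± 0.35 (SE, adjusted p = 0.00946), with 11.3% of its exon bases shared with Acaa1a.

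The machinery that processes and releases interleukin-1 beta and interleukin-18 had 9 called genes of 14 tested, all higher, with a median log2 fold change of 2.26, beside 11.0% of all tested genes called higher. Of the 9, 2 entered the test through BCAS mice, Casp4 among them, and with at least 10 counts required in every library 7 of 12 were called. Casp4, which encodes the caspase that senses lipopolysaccharide in the cytosol, was at 0.362 to 0.629 CPM in sham and at 13.7, 3.35, 8.32 and 5.29 CPM in BCAS mice (log2 fold change 3.96 ± 0.48, SE, adjusted p = 0.00198). The inflammasome sensor Nlrp3 was at 0.664 to 1.25 CPM in sham and at 19.3, 5.31, 11.6 and 11.7 CPM in BCAS mice (log2 fold change 3.55 ± 0.40, SE, adjusted p = 0.00178). Its adaptor Pycard followed with 2.91 ± 0.43 (SE, adjusted p = 0.00315), and 12.8% of its exon bases are shared with another gene. In these genes no BCAS mouse overlapped the sham mice, BCAS 2 included.

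Among 23 genes known to be induced by interleukin-1, 15 passed the filter and 13 were called, all higher, with a median log2 fold change of 1.98, beside 11.0% of all tested genes called higher. Of the 15, 4 reached the filter's level in fewer than 4 sham libraries and entered the test through BCAS mice, Mmp3, Lcn2 and Ccl2 among them. That count and median lean on these 4, and with at least 10 counts required in every library 9 of 11 were called. The matrix metalloproteinase gene Mmp3 had no count in any sham mouse, had 748, 76, 518 and 203 counts in BCAS 1 to 4, and was at least 107-fold higher in BCAS mice, with 3 counts per sham library taken as the floor. Lcn2, which encodes lipocalin-2, was at 0.121 to 0.686 CPM in sham mice and at 134, 1.85, 80.4 and 18.4 CPM in BCAS 1 to 4. It had a log2 fold change of 7.68 ± 1.40 (SE, adjusted p = 0.00642), which limma-voom did not call (adjusted p = 0.211). The chemokine gene Ccl2 had 0.0603 to 0.172 CPM in 3 sham mice and none in Sham 1, and 7.39, 0.824, 5.40 and 2.29 CPM in BCAS 1 to 4 (log2 fold change 5.63 ± 0.90, SE, adjusted p = 0.00410). Ptgs2, the gene of cyclooxygenase-2, was not called (log2 fold change -0.41, adjusted p = 0.154), nor was Sod2 at the fold threshold (log2 fold change -0.38, adjusted p = 0.0428). Interferons and other cytokines also induce many of these genes, so the list is not specific to interleukin-1.

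Markers of several cell types moved together with the members. Their counts of called genes stand beside 11.0% of all tested genes called higher and 1.28% called lower. All 10 microglial markers were called higher in BCAS mice, and their sum went from 362 to 441 CPM in sham mice to 4840, 1345, 2392 and 2593 CPM in BCAS 1 to 4, the order of Il33 and Il1rl1. No microglial marker was at 0 in any group. Of 14 markers of blood-borne leukocytes only Ccr2 and Ly6c2 passed the filter, both through their level in BCAS mice, and both were called. This count depended on the setting. With a sham mouse left out 6 or 7 of 9 were called, without BCAS 2 it was 9 of 9, and without the filter 11 of 14. With limma-voom 1 of 2 was called. The leukocyte sum went from 1.15 to 2.06 CPM in sham mice to 111, 4.79, 70.6 and 18.9 CPM in BCAS 1 to 4, the order of Il1a, Il1b, Il1rn, Il1r1 and Il18bp, with Klrb1c at 0 in all sham mice.

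Of the 10 astrocyte markers 7 were higher at an adjusted p under 0.05 and 2 of these, Aqp4 and Gfap, were called. The sum went from 5362 to 6243 CPM in sham mice to 10125, 7069, 8927 and 9428 CPM in BCAS 1 to 4, the same order as for microglia. The single markers did not share that order. Gfap, at 3427, 979, 2578 and 2297 CPM, and Aqp4, at 778, 273, 591 and 490 CPM, took the order 1, 3, 4 and 2. The abundant Slc1a2 was at 3271, 3669, 3435 and 3947 CPM and was not called. None of the 10 oligodendrocyte markers was called by edgeR, DESeq2 or limma-voom, and 1 had an unadjusted p under 0.05 with edgeR, with sums of 3938 to 6340 and 5516 to 8549 CPM. Of the endothelial markers 0 of 10 were called by the same tools, while 2 had an adjusted and 3 an unadjusted p under 0.05 with edgeR, and 1 was called without BCAS 2. Their sums were 433 to 543 CPM in sham mice and 741, 511, 562 and 658 CPM in BCAS 1 to 4, again in the order of the microglial sum. Of the fibroblast and meningeal markers 8 of 10 were called higher, with sums of 157 to 193 CPM in sham mice and 1099, 285, 1066 and 547 CPM in BCAS 1 to 4, the order seen for leukocytes. The 6 mast cell markers were each too low for the test, and summed to 0 to 0.0624 CPM in sham and 0 to 1.80 CPM in BCAS mice.

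Markers of cortical neurons went the other way. Of 10 markers, 8 had an adjusted p under 0.05, all lower in BCAS mice, and 2 of them, Snap25 and Tbr1, were called, and the median over the list was -0.88 on the log2 scale. Their sum was 9082, 8338, 7400 and 8631 CPM in Sham 1 to 4 and 2654, 6209, 4909 and 4133 CPM in BCAS 1 to 4. The groups did not overlap, and BCAS 1, the highest in most members, was the lowest here. The number of called neuronal markers was 0 without Sham 1, Sham 4, BCAS 1 or BCAS 4, 1 without Sham 2 and 7 without BCAS 2. The part of these cell types in the differences of the members was not tested.

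The genes whose pattern over the 8 mice was most like that of each tested member were found by the root-mean-square (RMS) difference in log2 CPM, each gene taken relative to its own sham mean. For Il1a these were Abcc3 (RMS difference 0.190) and P2ry6 (0.191), and for Il1b they were Rbm47 (0.317) and Lpl (0.318). For the receptors, Hspb8 and Piezo1 were closest to Il1r1 (both 0.125), Mdp1 (0.0411) and Urod (0.0454) to Il1rap, and Gm44250 (0.232) and Gm17147 (0.235) to Il1rl1. Anpep (0.187) and Bgn (0.241) were closest to Il18bp, Mmd2 (0.0550) and Gm13111 (0.0684) to Il18, and Rps12-ps3 (0.0893) and Nde1 (0.0967) to Il33. A member that varied little between mice had closer matches, so these values describe likeness within a member and do not rank the members.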

How the data were processed

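Counts for 54752 genes in 8 libraries were analysed. Per the labels and methods, the authors trimmed the reads with Trim Galore, aligned them to mm10 with HISAT2, sorted them with SAMtools 1.9, and deposited gene counts from featureCounts without normalization. The labels name featureCounts 1.6.3. The deposited file headers name 2.0.1 and GENCODE vM20, with no strand option. Gene symbols came from GENCODE vM21 on the same build. Unless stated, values are from edgeR 4.0.16 (R 4.3.3): TMM, filterByExpr (minimum count 10, total 15) and the quasi-likelihood F-test without covariates, adjusted by the Benjamini-Hochberg method over 17136 genes. The SE is the log2 fold change divided by the root of F. Ratios were compared by exact two-sided permutation over 70 arrangements. Alternatives were DESeq2 1.42.0 and its size factors, limma-voom and limma on log2(CPM + 1) (limma 3.58.1), 2 other filters, the replicate number as a block, leaving out each mouse, and the adjusted p alone. The edgeR fit was tried on counts simulated with known changes. Named genes are the members, the other family genes, the 3 called genes with the largest change in each pathway list and the 2 genes most alike each member. Exceptions, named after their values were seen, are the overlapping genes, single markers, Ptgs2 and Sod2. The members and lists were chosen with earlier results of these data known. Precision is limited by the 4 mice per group, and by counting error for genes with few counts.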

Additional observations from a re-analysis of the deposited data

Results flagged for a closer look

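Among 28 sets of 4 mice examined (members and ratios in each group), 3 had a mouse far from the rest of its set. Chance alone marks about 1 in 20 sets of continuous values. This rate does not hold for the flags that rest on the Il1rn counts of 0, 3, 0 and 0 in Sham 1 to 4. Il1rn was at 0.187 CPM in Sham 2, whose 3 counts are the only ones in sham mice. Il1rap was at 42.4 CPM in Sham 3, below the other sham mice, and it is this mouse that made the groups overlap. The log2 ratio of Il1rn to Il1a was -1.11 in Sham 2, above the other sham mice, from the same 3 counts.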

How the results depend on the processing

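No member or ratio changed direction under any alternative that tested it. With the adjusted p alone, 5490 genes passed in place of 2097, and 8 of the receptor signalling genes in place of 3. With at least 10 counts required in every library, 5 members were tested and 2 called, because Il1a, Il1b and Il1rl1 left the test. Without a filter 3 of the other family genes were called in place of 1, since Il18r1 and Il18rap entered the test, and leaving out each mouse gave 1 to 4. Leaving out each mouse gave 1644 (without BCAS 1) to 2967 (without BCAS 2) called genes and 5 to 7 called members. The replicate numbers did not pair the mice (correlations of same-numbered deviations of -0.10 to 0.0013). With the replicate number as a block, 1809 genes and 4 members were called, Il18bp being lost (adjusted p = 0.0652), and Il18 no longer passed the adjusted p (0.0776). The block left the differences in ratios as they were, and 4 pairs cannot reach an exact p under 0.125. With 1 mouse left out the ratios cannot reach an exact p under 0.0571.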
